A study of Mus musculus with 12 samples.

Results

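The interferon response and MHC class I genes are a set of 33 named genes, found by their symbols among the 38924 genes in the deposited tables of a mouse spinal cord study. The study asked how the transcriptome of whole spinal cord changes in Gars C201R mice, and sequenced 12 libraries of polyadenylated RNA from animals aged 8 weeks on a B6J.Cg background. Gars encodes glycyl-tRNA synthetase, which loads glycine onto its tRNAs, and C201R exchanges one residue of that enzyme. The libraries titled C201R carry the genotype tag C201R+/- and those titled wild type (WT) carry C201R+/+, read here with the titles as heterozygous and wild type. Each titled genotype has 3 female and 3 male libraries, and the labels do not say that each library is a separate animal, so every p-value measures the spread between libraries. How the allele was made is not given in the sources used here.

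The labels give genotype in the title, which the genotype tag follows, and in the library name, and these 2 differ in 4 libraries. The genotype written in the library name gives C201R for libraries 1, 2, 3, 4, 9 and 10 and WT for libraries 5, 6, 7, 8, 11 and 12. The title gives C201R for libraries 1, 2, 3, 10, 11 and 12 and WT for libraries 4, 5, 6, 7, 8 and 9. No label says which of the 2 is right, so the members are described under both and along the library number, which the labels do not explain. Of 6 motor neuron markers, Chodl and Chat were picked after their values were seen. In each disputed library both lay nearer to the group its library name gives. Chodl had 14.7, 12.6, 12.6 and 12.0 CPM in libraries 1, 2, 3 and 10, C201R under both labels, against 38.6, 39.6, 42.7 and 29.9 CPM in libraries 5 to 8, WT under both. Libraries 4 and 9, named C201R and titled WT, had 12.0 and 14.5 CPM, and libraries 11 and 12, named WT and titled C201R, had 29.3 and 27.2 CPM. Chat was at 15.3 to 18.0 CPM in the undisputed C201R libraries and 22.8 to 26.2 CPM in the undisputed WT libraries, with 17.6 and 18.4 CPM in libraries 4 and 9 and 21.5 and 22.4 CPM in libraries 11 and 12. Slc5a7 had 70.6 to 85.3 CPM in the undisputed C201R libraries and 93.6 to 103 CPM in the undisputed WT libraries. Libraries 4 and 9 had 78.6 and 79.7 CPM of it, and libraries 11 and 12 had 79.1 and 82.1 CPM. In libraries 11 and 12 Slc5a7 thus lay nearer to the group of the title. In Mnx1, Isl1 and Prph the undisputed groups overlapped. Over all genes 127 were called by library name and 0 by title. The summed expected counts per library ran from 27175421 to 38271405. Expected counts are the read counts that RSEM assigns to a gene, and CPM below are these counts over the TMM-scaled library total, on the usual counts-per-1000000 scale. The sex in the title and the level of Xist, the RNA that coats the inactive X chromosome, went against each other in 6 libraries. Xist was at 522 to 685 CPM in libraries 1, 2, 3, 8, 11 and 12, of which 2, 3 and 8 are titled male, and at 0.134 to 0.220 CPM in the other libraries, of which 4, 5 and 6 are titled female. Gars itself had 143 to 155 CPM in libraries named C201R and 130 to 142 CPM in those named WT. Every library named C201R thus lay above every library named WT, a pattern shown by 0.585% of all genes tested. By title the groups overlapped, at 137 to 152 CPM in C201R and 130 to 155 CPM in WT libraries. A change of 1 residue need not alter the Gars mRNA, so its level alone settles no label. Markers of central nervous tissue, which do not tell cord from brain, were high in every library. The sums were 25836 to 31055 CPM for 7 oligodendrocyte genes, 6801 to 7409 CPM for 7 astrocyte genes and 3289 to 3609 CPM for 8 neuronal genes. Other tissue varied widely between libraries: skeletal muscle markers summed to 12.8 to 2044 CPM and Schwann cell markers to 252 to 1385 CPM.

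Interferons are cytokines released when cells sense foreign or misplaced nucleic acid. Type I interferons signal through Ifnar1 and Ifnar2 to the kinases Jak1 and Tyk2, which switch on a complex that holds Stat2 and Irf9, and this complex binds the interferon-stimulated response element (ISRE) in the promoters of antiviral genes. Interferon gamma acts through the gamma-activated site (GAS) and raises the genes that present peptides on MHC class I. In the healthy nervous system class I molecules are kept low on neurons, and glia and vessel cells respond to interferon.

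Promoters were read because the set was assembled by function and the members may share sequence that the choice of members did not use. RefSeq promoters on GRCm38.p6, covering 250 bases before to 50 bases after each start, were found for 26 of the 33 members. Usp18, Dhx58, Zbp1, Ifi27l2a, Parp9, Parp14 and Rtp4 were not matched. The motifs were chosen with the sequences in view and were searched on both strands. The ISRE, searched as 2 copies of GAAA with any 2 bases between them, was present in at least 1 promoter of 13 of 26 members (50%), against 3.99% of all 27025 genes in the table, which has 32851 promoters. A spacing found in class I promoters, GAANNGAAA, was present in 9 of 26 members (34.6%), against 8.68% of all genes. Most of these lie outside the class I group: Ddx58, Ifi44, Ifih1, Isg15, Stat2, Trim30a and Xaf1, beside H2-K1 and H2-D1. The GAS, TTCNNNGAA, was present in 4 of 26 members (15.4%), against 9.55% of all genes. A kappa B site, GGGATTCCC, was present in 2 of 26 members, H2-K1 and H2-D1 (7.69%), against 0.414% of all genes. Matches of different motifs overlap in Stat2, Ifih1, Bst2 and Ifitm3. A match to these letters describes the sequence and shows no binding.

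The first set of sequences shows the ISRE in genes of the interferon arm, with each match in capitals, and runs 5′ to 3′ on the strand of the gene up to the base before its RefSeq start. Isg15 lies at chr4:156200819-156201068 (minus strand), Gbp3 at chr3:142559794-142560043 (plus strand) and Rsad2 at chr12:26456453-26456702 (minus strand). In Isg15 3 overlapping ISRE matches begin 78, 72 and 66 bases before the start, and the capitals further upstream mark the short class I form. In Gbp3 a pair of overlapping matches begins 45 and 39 bases before the start, and in Rsad2 a single match begins 120 bases before it.
Isg15: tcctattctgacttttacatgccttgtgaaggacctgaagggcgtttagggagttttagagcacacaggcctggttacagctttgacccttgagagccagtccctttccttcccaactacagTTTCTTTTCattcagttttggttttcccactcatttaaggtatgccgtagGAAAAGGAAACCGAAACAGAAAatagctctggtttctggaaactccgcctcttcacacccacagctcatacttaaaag
Gbp3: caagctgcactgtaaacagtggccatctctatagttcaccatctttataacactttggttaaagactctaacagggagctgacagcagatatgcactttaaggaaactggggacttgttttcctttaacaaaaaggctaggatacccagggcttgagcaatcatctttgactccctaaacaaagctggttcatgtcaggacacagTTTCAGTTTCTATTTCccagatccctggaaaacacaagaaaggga
Rsad2: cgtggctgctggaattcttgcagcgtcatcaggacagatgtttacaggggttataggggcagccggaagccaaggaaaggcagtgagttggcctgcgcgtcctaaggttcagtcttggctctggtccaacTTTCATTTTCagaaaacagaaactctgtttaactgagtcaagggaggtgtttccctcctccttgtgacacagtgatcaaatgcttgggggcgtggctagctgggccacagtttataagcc

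The second set shows the genes of the class I molecule, B2m at chr2:122147437-122147686 (plus strand), H2-K1 at chr17:34000348-34000597 (minus strand) and H2-D1 at chr17:35262844-35263093 (plus strand). B2m carries an ISRE that begins 139 bases before the start. In H2-K1 the capitals mark the kappa B site, which begins 110 bases before the start, and the short class I form, which begins 90 bases before it. H2-D1 carries the same pair of motifs 170 and 150 bases before the start, in the same order.
B2m: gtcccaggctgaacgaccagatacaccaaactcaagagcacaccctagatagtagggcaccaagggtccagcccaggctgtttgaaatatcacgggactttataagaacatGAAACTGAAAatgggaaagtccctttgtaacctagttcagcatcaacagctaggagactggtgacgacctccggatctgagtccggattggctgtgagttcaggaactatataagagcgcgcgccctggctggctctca
H2-K1: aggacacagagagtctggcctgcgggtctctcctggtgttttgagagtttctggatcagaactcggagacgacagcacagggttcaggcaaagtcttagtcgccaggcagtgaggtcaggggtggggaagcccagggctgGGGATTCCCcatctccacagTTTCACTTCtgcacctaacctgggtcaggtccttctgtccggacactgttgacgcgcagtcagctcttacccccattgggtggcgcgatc
H2-D1: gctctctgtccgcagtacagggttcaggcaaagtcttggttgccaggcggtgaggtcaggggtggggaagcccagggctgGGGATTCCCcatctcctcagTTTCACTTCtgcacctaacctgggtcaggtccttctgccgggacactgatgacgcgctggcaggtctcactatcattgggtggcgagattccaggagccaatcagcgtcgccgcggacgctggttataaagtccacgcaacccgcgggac

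The last sequence is the whole stretch between 2 members that point away from each other. Tap1 and Psmb9 start 226 bases apart on chromosome 17, Psmb9 on the minus strand and Tap1 on the plus strand, and share 225 bases at chr17:34187331-34187555, given on the plus strand. None of the 4 motifs lies in it, which says only that these letters are not in this window. Cmpk2 and Rsad2 are another pair of neighbours, with starts 12763 bases apart on chromosome 12.
Tap1 and Psmb9: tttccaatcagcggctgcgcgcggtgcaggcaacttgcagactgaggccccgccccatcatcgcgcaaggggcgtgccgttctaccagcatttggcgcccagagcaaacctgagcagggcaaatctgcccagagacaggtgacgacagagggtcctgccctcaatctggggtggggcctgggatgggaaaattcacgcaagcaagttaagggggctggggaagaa

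**Figure D1:**
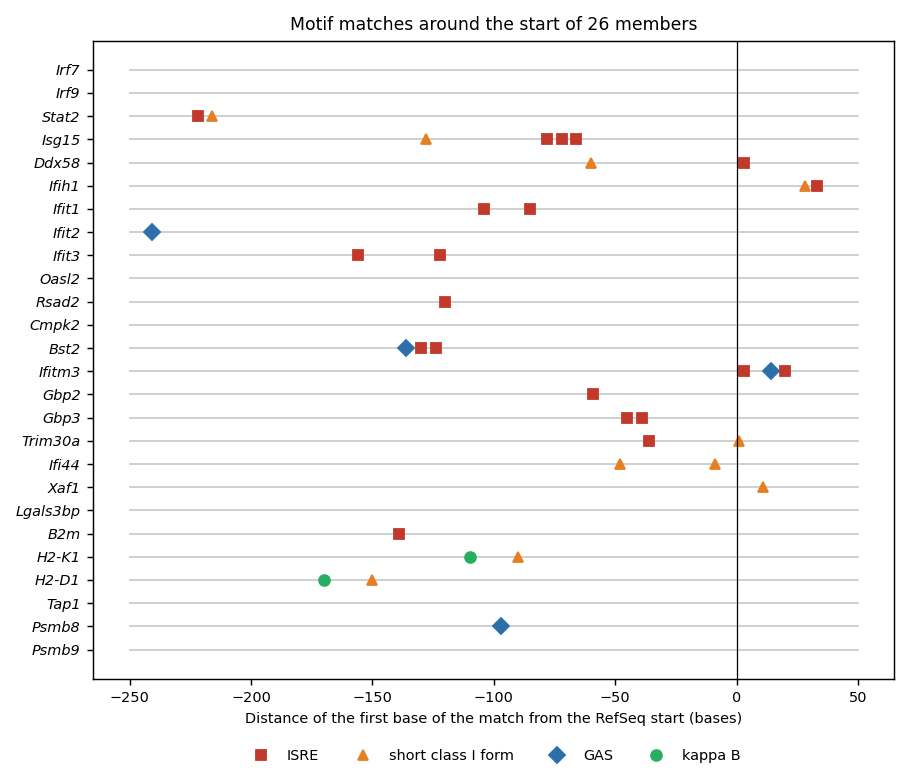
Matches to 4 motifs in the promoters of 26 members, one line per gene. The horizontal axis gives the distance in bases from the RefSeq start, and squares mark the ISRE, triangles the short class I form, diamonds the GAS and circles the kappa B site; 13 of the 26 lines carry a square and 2 carry a circle.

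All 33 members passed the filter on low counts. Levels are compared between genes in TPM, which is per length. Mean TPM over the 12 libraries ran from 0.486 for Zbp1, a sensor of left-handed nucleic acid, to 182 for B2m, the light chain of every class I molecule, with a median of 6.27. The class I heavy chains followed B2m, with 82.6 TPM for H2-D1 and 49.6 TPM for H2-K1, and Ifitm3, a membrane protein that blocks viral entry, had 50.4 TPM. In all, 10 members lay above 10 TPM, and 2, Zbp1 and Ifi44, lay under 1 TPM. Among the members, the genes of peptide supply were far lower than those of the class I molecule. Tap1, one chain of the peptide pump of the endoplasmic reticulum, had 3.38 TPM, and the immunoproteasome subunits Psmb8 and Psmb9 had 6.74 and 2.16 TPM. Genes of peptide supply outside the set were not part of this ranking. Cord from both genotypes thus held interferon-stimulated transcripts at a measurable level. The spread of CPM over the 12 libraries, as the SD over the mean, had a median of 15.1% in the members and 7.97% in all 17765 genes tested. It was smallest for Cmpk2, a mitochondrial nucleotide kinase, at 4.83%, and largest for Ifi27l2a, a small mitochondrial membrane protein, at 108%.

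The members did not vary one by one: libraries 1 and 2, both C201R under either label, stood high for nearly all of them. Library 1 was above the gene's own median over 12 libraries for 31 of 33 members and library 2 for 32, against 50.3% and 51.3% of all genes tested. The median log2 ratio of the members to their own medians was 0.22 in library 1 and 0.29 in library 2, and between -0.13 and 0.05 in libraries 3 to 12. Library 3, the third library with C201R in both labels, was at 0.04 and had 20 of 33 members above their medians, against 51.0% of all genes. Libraries 4, 6 and 11 had 23, 21 and 22 members above their medians.

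Together libraries 1 to 3 held the highest CPM of 25 of 33 members (75.8%), against 30.0% of all genes tested. Library 1 held 11 of these and library 2 held 12, or 33.3% and 36.4% of the members, against 8.88% and 12.9% of all genes. Library 3 held 2, or 6.06%, against 8.18% of all genes, so its share was no larger than that of all genes. For 7 members all of libraries 1 to 3 lay above all of libraries 4 to 12 in CPM, against 2.69% of all genes tested: Zbp1, Ifit2, Bst2, Gbp2, Gbp3, Trim30a and Tap1. Bst2 was close to a tie, at 2.88099 CPM in library 3 and 2.88077 CPM in library 11. In TPM Ifit2, Bst2 and Trim30a did not show this pattern: library 11 had 10.42, 9.13 and 3.78, against 9, 8.75 and 3.13 in library 3. Since libraries 1 to 3 are C201R under both labels and also carry the lowest numbers, genotype and library number cannot be told apart in them. All of libraries 1 to 3 also had high Xist, at 606 to 685 CPM, as did libraries 8, 11 and 12. The part of sex by Xist in this pattern was not tested.

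**Figure D2:**
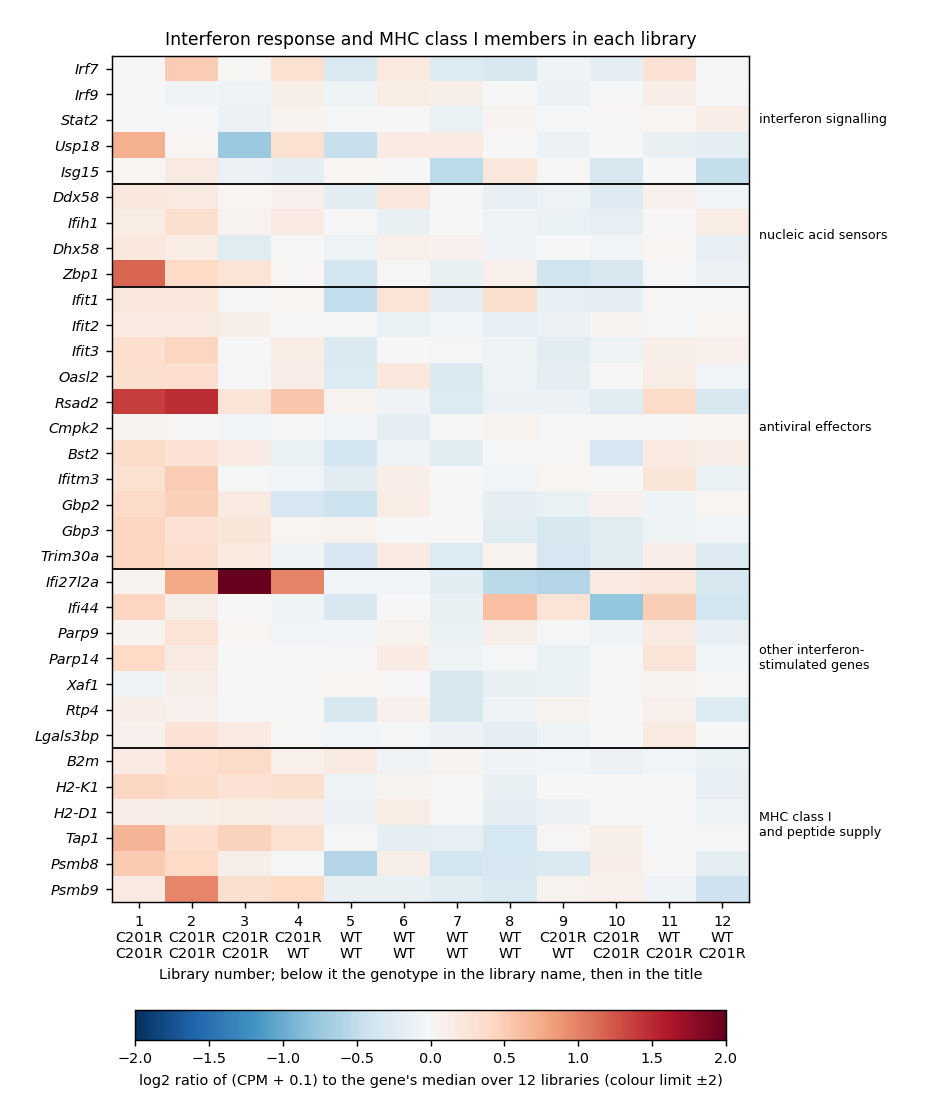
Level of the 33 members (rows, by role) in the 12 libraries (columns, by number, with the genotype in the library name and in the title). Colour gives the log2 ratio of CPM + 0.1 to the gene's median over the 12 libraries; libraries 1 and 2 are red in nearly every row, and library 3 in 20 of 33.

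**Figure D3:**
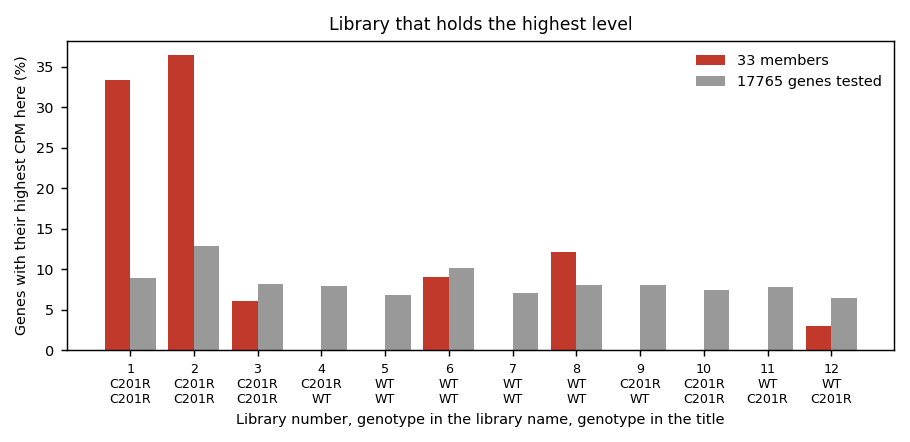
Share of genes, in percent, whose highest CPM lies in each library, for the 33 members (red) and all 17765 genes tested (grey), with libraries on the horizontal axis. Libraries 1 and 2 hold 33.3% and 36.4% of the members and 8.88% and 12.9% of all genes. Library 3 holds 6.06% of the members and 8.18% of all genes.

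By the genotype in the library name, the class I group had the highest median difference among the groups of members. All 6 of its members had positive log2 differences, with a median of 0.39, against a median of 0.00 over all genes tested. Tap1 rose, with an adjusted p of 0.0308 in edgeR's quasi-likelihood test, and was the only 1 of the 33 members that passed the threshold of 0.05. Of all genes tested 0.715% were called in this comparison, 0.169% higher and 0.546% lower. Over the whole set 30 of 33 members had positive differences, against 50.9% of all genes, and 7 of 33 had an unadjusted p under 0.05, against 12.8% of all genes.

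Tap1 had a lowest, median and highest level of 3.98, 4.92 and 6.35 CPM in C201R libraries, against 3.05, 3.64 and 3.87 CPM in WT libraries. The 2 groups did not overlap in CPM. The means were 4.98 ± 0.849 CPM in C201R and 3.58 ± 0.324 CPM in WT libraries (SD, n = 6 each), and the fitted log2 difference was 0.55 ± 0.10 (SE). Libraries 1 to 3 had 6.35, 4.97 and 5.43 CPM. Libraries 4, 9 and 10 had 4.86, 3.98 and 4.26 CPM, each still above the highest WT library in CPM. In TPM the groups of Tap1 overlapped: C201R libraries 4 and 9 had 3.25 and 3.01, against 3.14 and 3.35 in WT libraries 11 and 12. The adjusted p passed the threshold under 7 of 22 other settings and missed it under 15. It rose to between 0.0517 and 0.157 when any 1 of libraries 1, 2, 3, 5, 6, 7, 8, 11 or 12 was left out, and to 0.261 without libraries 1 to 3 together, where the log2 difference was 0.35 ± 0.09.

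Psmb9, the neighbour of Tap1 and a catalytic subunit of the immunoproteasome, was the other member whose groups did not overlap in CPM, a pattern shown by 0.585% of all genes. It had a lowest, median and highest level of 1.20, 1.36 and 2.33 CPM in C201R libraries, against 0.827, 0.992 and 1.08 CPM in WT libraries. Its means of 1.504 ± 0.425 CPM in C201R and 0.969 ± 0.0908 CPM in WT libraries (SD, n = 6 each) gave a log2 difference of 0.62 ± 0.19 and an adjusted p of 0.181 in edgeR. The next highest C201R library after library 2 had 1.54 CPM. In TPM the groups of Psmb9 overlapped: C201R libraries 4 and 10 had 2.05 and 2.16, under WT library 5 at 2.23. In GENCODE M21 the extents of Psmb9 and Tap1 overlap at their 5′ ends, and whether RSEM used strand is not given in the sources used here, so reads in that overlap are uncertain.

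The heavy chain H2-K1 had a lowest, median and highest level of 34.3, 42.9 and 46.4 CPM in C201R libraries, against 30.8, 33.5 and 36.1 CPM in WT libraries. Libraries 1 to 4 lay between 42.5 and 46.4 CPM, and libraries 9 and 10 at 34.3 and 34.5 CPM lay inside the WT range. The log2 difference was 0.34 ± 0.08 with an adjusted p of 0.0823 in edgeR, which misses the threshold. It passed under 2 of 22 other settings, DESeq2 and without library 9 (adjusted p 0.0304), and missed under 20, with adjusted p-values of up to 0.369 and log2 differences down to 0.20. Of the other class I members, Psmb8 averaged 3.86 ± 0.787 CPM in C201R and 2.97 ± 0.563 CPM in WT libraries, a log2 difference of 0.45 ± 0.16 and an adjusted p of 0.261. H2-D1 averaged 75.0 ± 5.55 CPM in C201R and 69.9 ± 5.88 CPM in WT libraries, and B2m 72.7 ± 10.3 CPM in C201R and 65.1 ± 5.37 CPM in WT libraries (SD, n = 6 each). Their groups overlapped.

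Each group of the interferon arm had a smaller median difference by library name than the class I group, and no member of the arm passed the test, although Ifi27l2a and Rsad2 had the 2 largest differences of the set, 1.20 and 0.88. The transducers and their brakes had 3 of 5 positive differences and a median of 0.04. Stat2 and Irf9, which belong to the DNA-binding complex, had log2 differences of -0.00 ± 0.05 and -0.06 ± 0.06. Irf7, which amplifies interferon production, was at 0.26 ± 0.16. Isg15, the ubiquitin-like protein attached to targets in infected cells, averaged 2.12 ± 0.276 CPM in C201R and 2.06 ± 0.433 CPM in WT libraries (SD, n = 6 each). Usp18, which removes Isg15 and holds back the receptor, was at 0.23 ± 0.22.

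All 4 nucleic acid sensors had positive differences, with a median of 0.11. Ddx58 (RIG-I) and Ifih1 (MDA5), which detect viral RNA, had log2 differences of 0.11 ± 0.09 and 0.12 ± 0.09, and Dhx58, their regulator, 0.06 ± 0.11. The difference of Zbp1, 0.59 ± 0.33, leaned on library 1, which had 0.813 CPM against 0.208 to 0.435 CPM in the other C201R libraries and 0.216 to 0.338 CPM in WT libraries. No sensor had an unadjusted p under 0.05.

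All 11 antiviral effectors had positive differences, with a median of 0.18 and 2 unadjusted p-values under 0.05. Rsad2 (viperin), which makes a chain-terminating nucleotide, had 9.82, 10.4, 4.44, 5.49, 3.38 and 3.12 CPM in C201R libraries 1, 2, 3, 4, 9 and 10, against 2.94 to 4.83 CPM in WT libraries. Its log2 difference was 0.88 ± 0.30 with an adjusted p of 0.228, and libraries 1 and 2 stood far above the rest. Cmpk2, encoded next to Rsad2, did not share this pattern: it averaged 31.3 ± 0.932 CPM in C201R and 30.8 ± 1.98 CPM in WT libraries (SD, n = 6 each), a log2 difference of 0.02 ± 0.05. Ifit2, which binds viral RNA, was at 0.14 ± 0.06, and Ifit1 and Ifit3 of the same family were at 0.03 ± 0.14 and 0.18 ± 0.11. Ifit3 shares 41.1% of its 75-base windows with Ifit3b, so the split of its reads is uncertain. Oasl2 was at 0.24 ± 0.11, Bst2 (tetherin, which holds budding virions at the membrane) at 0.17 ± 0.15, and Trim30a at 0.20 ± 0.16. The guanylate-binding proteins Gbp2 and Gbp3 were at 0.21 ± 0.15 and 0.20 ± 0.12.

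Among the other interferon-stimulated genes 6 of 7 had positive differences, with a median of 0.09 and no unadjusted p under 0.05. Lgals3bp, a secreted galectin-binding glycoprotein, was at 0.14 ± 0.07, and Ifi44 was the 1 gene of this group below 0, at -0.06 ± 0.26. Ifi27l2a had 1.06, 1.80, 6.96, 2.13, 0.651 and 1.17 CPM in C201R libraries 1, 2, 3, 4, 9 and 10, against 0.677 to 1.20 CPM in WT libraries. Its log2 difference of 1.20 ± 0.56 rested on library 3. Library 3 also had 120 CPM in the sum of 5 fat markers, against 0.312 to 7.12 CPM in the other libraries, and the part of fat in the Ifi27l2a value was not tested.

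**Figure D4:**
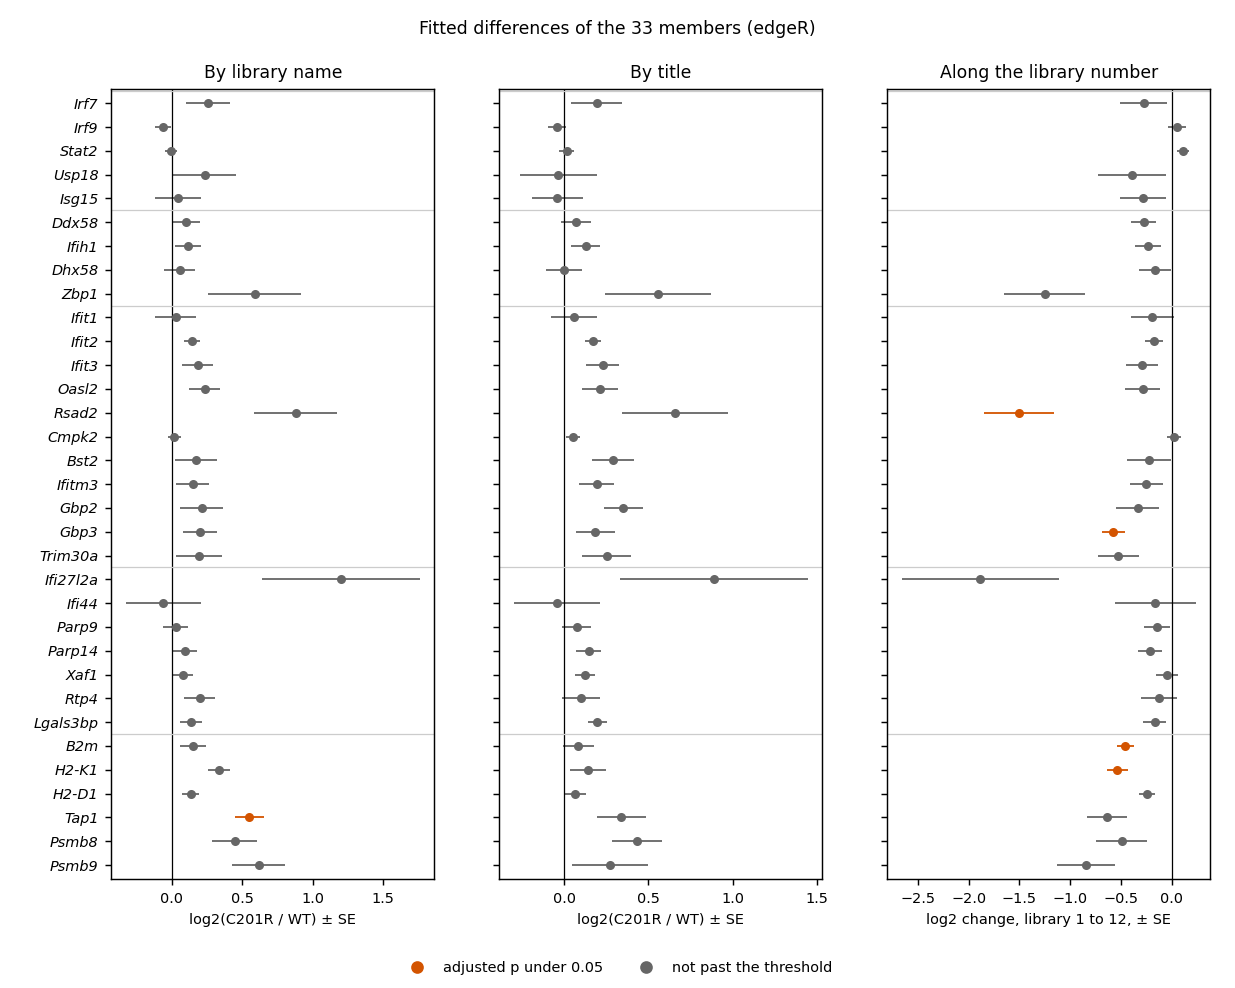
Fitted log2 values with standard errors for the 33 members, ordered by role, for C201R over WT by library name (left), by title (middle) and along the library number from library 1 to library 12 (right). Orange points passed an adjusted p of 0.05: Tap1 on the left, none in the middle, and Rsad2, Gbp3, B2m and H2-K1 on the right.

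By the genotype in the title no member was called, and 0% of all genes tested passed the threshold in edgeR. Xist was high in libraries 1, 2, 3, 11 and 12, titled C201R, and among those titled WT only in library 8. Title genotype and sex by Xist thus largely go together, and their parts were not tested apart. At an unadjusted p under 0.05 there were 1202 genes (6.77%), 7 of them members, and DESeq2 called 18 genes and 0 members. The titled and the named comparison share 8 of 12 libraries in the same group, so each is given by its own values. By title 28 of 33 members had positive differences, against 50.7% of all genes, with a median of 0.15. The antiviral effectors had 11 of 11 positive, the class I group 6 of 6, the other interferon-stimulated genes 6 of 7, the sensors 3 of 4 and the transducers 2 of 5. The class I group did not lead by title: its median was 0.207, and that of the antiviral effectors was 0.211.

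The members with the lowest p by title were not those by library name. Ifit2 had a lowest, median and highest level of 14.4, 15.6 and 16.5 CPM in C201R libraries, against 13.1, 13.8 and 14.7 CPM in WT libraries, with a log2 difference of 0.17 ± 0.05 and an adjusted p of 0.604. Lgals3bp had 18.4, 20.2 and 22.6 CPM in C201R libraries, against 16.2, 17.6 and 18.7 CPM in WT libraries, with a log2 difference of 0.20 ± 0.06 and an adjusted p of 0.604. Gbp2 had 5.13, 6.01 and 7.61 CPM in C201R libraries, against 4.03, 4.84 and 6.09 CPM in WT libraries, with a log2 difference of 0.35 ± 0.12 and an adjusted p of 0.662 in edgeR. In all 3 genes the groups overlapped in CPM. In the class I group Tap1 averaged 4.78 ± 0.998 CPM in C201R and 3.77 ± 0.628 CPM in WT libraries (SD, n = 6 each), a log2 difference of 0.34 ± 0.15. H2-K1 averaged 38.9 ± 6.43 CPM in C201R and 35.3 ± 4.32 CPM in WT libraries, a log2 difference of 0.14 ± 0.11, since library 4 (43.4 CPM) moves to WT and library 12 (30.8 CPM) to C201R. No member had all 6 C201R libraries above all 6 WT libraries by title in CPM, against 0.163% of all genes. In TPM Ifit2 did, narrowly: C201R library 12 was its lowest at 8.51, and WT library 7 its highest at 8.47.

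In the 8 libraries where both labels give the same genotype, 30 of 33 members had positive differences with a median of 0.24, and no member was called, against 0.158% of all genes tested. For 5 members, Ifit2, Ifi27l2a, Lgals3bp, Tap1 and Psmb9, all 4 C201R libraries lay above all 4 WT libraries in CPM, against 3.82% of all genes. In TPM Lgals3bp and Psmb9 overlapped. Lgals3bp had 18.13 TPM in C201R library 3 and 19.12 in WT library 6, and Psmb9 had 2.16 in C201R library 10 and 2.23 in WT library 5. Tap1 had 6.35, 4.97, 5.43 and 4.26 CPM in C201R libraries 1, 2, 3 and 10, against 3.85, 3.43, 3.48 and 3.05 CPM in WT libraries 5, 6, 7 and 8, a log2 difference of 0.66 ± 0.12 with an adjusted p of 0.0848 in edgeR. These libraries also separate by number, with 3 of the 4 C201R libraries numbered below every WT library. Of the 8 libraries, Xist was high in C201R libraries 1, 2 and 3 and in WT library 8, so sex by Xist was unevenly split as well.

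Without libraries 1 to 3, an alternative added after the data were seen, the lean of the set was not seen under either label. By library name 19 of 33 members were positive with a median of 0.02, and by title 16 of 33 with a median of -0.01, against all-gene medians of 0.00 and -0.00. No member was called in either fit. With the library number as a term beside the library-name genotype, 25 of 33 members were positive, against 50.5% of all genes, with a median of 0.09, and Tap1 was at 0.44 ± 0.11 with an adjusted p of 0.0742 in edgeR.

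Along the library number the members leaned downward, with negative slopes in 30 of 33. Of these B2m, H2-K1, Gbp3 and Rsad2 passed the test, all lower at higher numbers, against 0.743% of all genes tested called lower and 1.68% called in either direction. The light chain B2m had 73.8, 83.1 and 85.7 CPM in libraries 1 to 3, 70.3, 74.7, 62.7, 68.0, 62.4 and 62.9 CPM in libraries 4 to 9, and 60.5, 63.3 and 59.8 CPM in libraries 10 to 12. Its slope was -0.042 ± 0.007 log2 units per step (SE), or 0.728 times over the 11 steps, with an adjusted p of 0.0257 in edgeR. The values came down early in the series and lay within 59.8 to 63.3 CPM from library 8 on.

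H2-K1, which pairs with B2m, had 46.4, 44.8, 42.5 and 43.4 CPM in libraries 1 to 4 and 30.8 to 36.1 CPM in libraries 5 to 12. Its slope was -0.049 ± 0.009 per step, or 0.690 times over the series, with an adjusted p of 0.0334. The step between libraries 4 and 5 is larger than the range of the libraries on either side of it. Gbp3, an interferon-induced GTPase, had 9.29, 8.42 and 8.13 CPM in libraries 1 to 3, 5.49 to 7.24 CPM in libraries 4 to 9, and 5.82, 6.42 and 6.65 CPM in libraries 10 to 12. It fell by 0.052 ± 0.010 log2 units per step, or to 0.670 times, with an adjusted p of 0.0359. Rsad2 fell by 0.137 ± 0.031 per step, or to 0.352 times, with an adjusted p of 0.0489 in edgeR, and libraries 1 and 2 (9.82 and 10.4 CPM) carried most of the fall.

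These calls were lost when libraries 1 to 3 were left out, which also leaves fewer libraries and a shorter span of numbers. With all libraries 299 genes were called along the number. Without libraries 1 to 3 no gene was called along the number, 19 of 33 members had positive slopes, and the 4 genes had slopes of -0.030, -0.030, -0.022 and -0.036 per step for B2m, H2-K1, Gbp3 and Rsad2, with adjusted p-values of 0.646 to 0.812. B2m and H2-K1 also missed the threshold when any 1 of libraries 1, 2, 3, 9 or 12 was left out, with adjusted p-values of 0.0543 to 0.133. Gbp3 missed it without any 1 of libraries 1, 2, 3, 8, 9, 10, 11 or 12, and Rsad2 without any 1 of libraries 1, 2, 3, 4, 7, 8, 9, 10 or 12, with adjusted p-values of 0.0521 to 0.190.

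Beside the library-name genotype in 1 fit, 28 of 33 members had negative slopes and B2m, H2-K1 and Gbp3 were called lower, against 3.97% of all genes called lower and 6.38% in either direction. The slopes were -0.042 ± 0.009 for B2m, -0.034 ± 0.008 for H2-K1 and -0.054 ± 0.013 for Gbp3, with adjusted p-values of 0.0239, 0.0328 and 0.0325 in edgeR. Rsad2 was at -0.109 ± 0.038 with an adjusted p of 0.114, and Tap1 at -0.027 ± 0.015 with an adjusted p of 0.307. Single libraries ended these calls too. B2m lost its call without any 1 of libraries 2, 5, 9 or 10, H2-K1 without any 1 of libraries 1, 2, 3, 7, 9, 10 or 12, and Gbp3 without any 1 of libraries 1, 2, 3, 5, 7, 9, 10 or 11, with adjusted p-values of 0.0533 to 0.116.

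**Figure D5:**
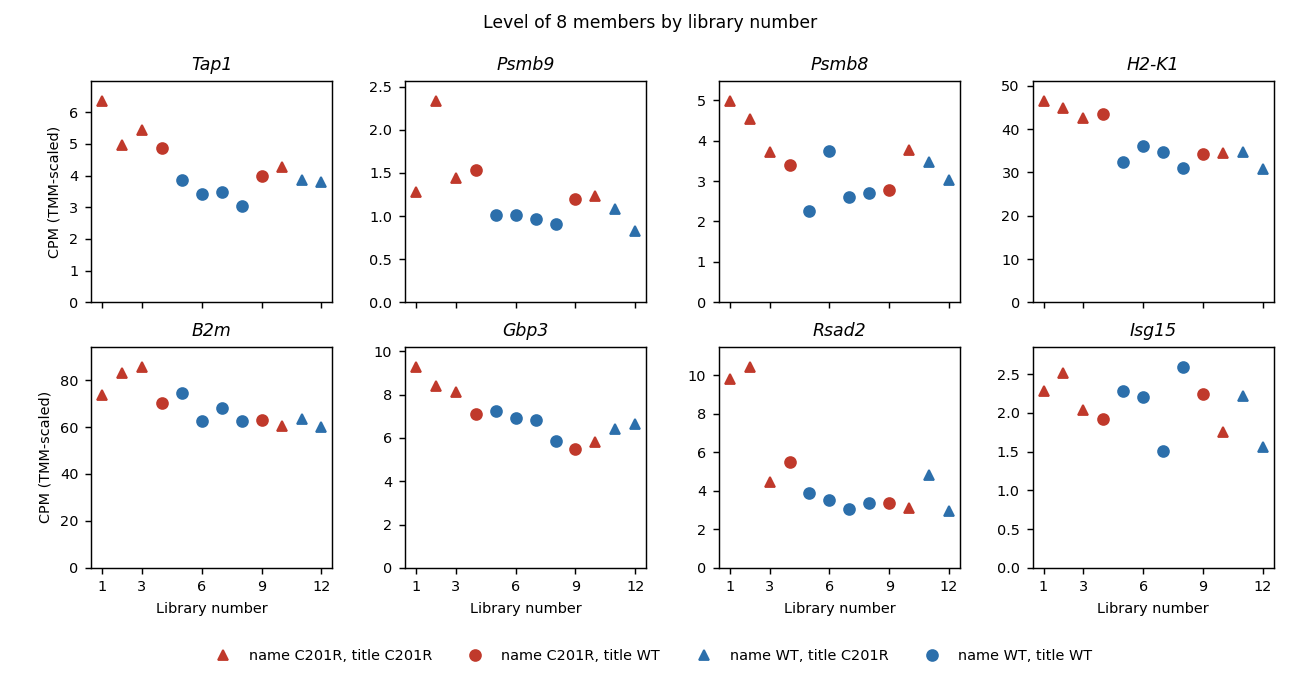
CPM of 8 members (vertical axis, from 0) against the library number (horizontal axis), 1 point per library. Red and blue give C201R and WT in the library name, triangles and circles C201R and WT in the title; in Tap1 and Psmb9 every red point lies above every blue point, and in Gbp3 libraries 1 to 3 lie above all others.

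Upstream of the set, transcripts of the interferons themselves were close to absent. The 16 listed ligand genes had 15 expected counts in total over the 12 libraries, 12 of them were at 0 in every library, and none reached the filter, so a difference in ligand mRNA was not detectable at this depth. Of 18 receptors, kinases and transcription factors, 9 had positive differences by library name, and Jak1, the kinase shared by type I and type II receptors, was called lower, with 193 ± 5.08 CPM in C201R and 211 ± 4.27 CPM in WT libraries (SD, n = 6 each), a log2 difference of -0.14 ± 0.03 and an adjusted p of 0.0243 in edgeR. By title and along the number none of the 18 was called. The receptor chain Ifnar1 lay between 40.8 and 46.1 CPM in all libraries.

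Of 20 genes of nucleic acid sensing and its control, none was called by library name or title. Along the number Eif2ak2 (PKR, a kinase switched on by double-stranded RNA) fell by 0.031 ± 0.007 per step with an adjusted p of 0.0403, and Traf3, a signalling adaptor, was called higher at 0.024 ± 0.005 per step with an adjusted p of 0.0391. Further interferon-stimulated genes outside the set were counted in the same way. By library name 50 of 58 had positive differences, against 50.9% of all genes, with a median of 0.15, and none was called. By title 48 of 58 were positive, against 50.7% of all genes, and none was called. Along the number 51 of 58 had negative slopes and 4 were called, all lower, against 0.743% of all genes called lower: Gbp4 (-0.131 ± 0.022), Oas3 (-0.156 ± 0.030), Ifi203 (-0.058 ± 0.012) and Isg20 (-0.132 ± 0.029), with adjusted p-values of 0.0225 to 0.0418 in edgeR. Gbp4 had 8.98, 6.06 and 4.32 CPM in libraries 1 to 3 and 2.44 to 5.18 CPM in libraries 4 to 12.

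Among 23 further class I and antigen processing genes 17 had positive differences by library name, against 50.9% of all genes, with a median of 0.11. By title 16 were positive, against 50.7% of all genes, with a median of 0.06. None was called by library name or title. The lowest p by library name was that of H2-Q6, a non-classical class I gene, at 0.65 ± 0.14 with an adjusted p of 0.0565 in edgeR. Along the number H2-Q4 and H2-Q7 were called lower, at -0.047 ± 0.006 (adjusted p 0.00879) and -0.115 ± 0.021 (adjusted p 0.0310), and Calr, a chaperone of class I folding, was called higher at 0.032 ± 0.007 (adjusted p 0.0364). H2-Q4 had 41.8, 40.1 and 36.8 CPM in libraries 1 to 3 and 28.8 to 37.6 CPM in libraries 4 to 12. H2-Q7 shares 17.0% of its 75-base windows with other genes, H2-Q4 7.02%, H2-D1 5.40% and H2-K1 3.10%, so the split of reads within the class I family is uncertain. Of 7 MHC class II genes, which professional antigen-presenting cells carry, 6 had positive differences by library name (median 0.43) and 7 by title (median 0.51), with none called. Cd74, the invariant chain, averaged 9.45 ± 1.34 CPM in C201R and 5.78 ± 1.51 CPM in WT libraries by title (SD, n = 6 each), a log2 difference of 0.71 ± 0.16 with an adjusted p of 0.542 in edgeR.

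In whole cord, fewer cells of a type and less RNA per cell cannot be told apart, so marker sums are given beside the members. Microglial markers (12 genes) summed to 328 to 367 CPM in libraries 1 to 3 and 310 to 357 CPM in libraries 4 to 12, and 1 of them, P2ry12, was called lower along the number. The 13 markers of T, B and NK cells summed to 9.35, 6.86 and 4.80 CPM in libraries 1 to 3 and 2.21 to 5.58 CPM in libraries 4 to 12, of which Cd3e, Cd3d, Cd3g, Cd4 and Ncr1 were at 0 in at least 1 library. The 6 red cell markers summed to 1501, 2986 and 1008 CPM in libraries 1 to 3 and 448 to 1318 CPM in libraries 4 to 12, and 4 of 6 were called lower along the number. Endothelial markers summed to 347, 347 and 289 CPM and pericyte and smooth muscle markers to 304, 290 and 244 CPM in libraries 1 to 3, against 285 to 330 CPM and 227 to 254 CPM in libraries 4 to 12. Blood and vessel transcripts thus stood high in libraries 1 and 2 together with the members, and their part in the members' values was not tested. Neutrophil and monocyte markers, at 57.2 to 88.7 CPM in libraries 1 to 3 and 11.5 to 95.5 CPM in libraries 4 to 12, overlapped. By library name red cell markers summed to 590 to 2986 CPM in C201R and 448 to 1273 CPM in WT libraries, and T, B and NK markers to 2.21 to 9.35 CPM in C201R and 2.45 to 5.58 CPM in WT libraries. Motor neuron markers (6 genes) summed to 159 to 187 CPM in C201R and 196 to 276 CPM in WT libraries by library name, which did not overlap.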

How the data were processed

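PolyA libraries of spinal cord RNA were read from both ends over 75 bases, per the labels' protocols, which describe stranded chemistry and name 2 library kits without saying which library used which. Bowtie2 2.2.0 and RSEM 1.2.12 were used, per the submitters' processing notes. The genome build is not given in the sources used here. The authors deposited, per the file headers, an expected count and a TPM for each of 38924 genes; the deposited FPKM was not used. RSEM divides reads shared by several genes, so estimated counts of close paralogs are uncertain. Depth limits Zbp1 and Ifi44 most, and reads carried no molecular identifiers.

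Expected counts were rounded to whole numbers, filtered with filterByExpr on the 4 titled groups (17765 genes), and TMM-scaled. The main test was edgeR's quasi-likelihood F test (edgeR 4.0.16, R 4.3.3) with titled sex as a term, Benjamini-Hochberg adjusted over the 17765 genes and called at 0.05. Titled sex is the label that the level of Xist went against in the libraries named above, and no fit used sex by Xist. The library number entered as a linear term. Standard errors are the log2 value divided by the square root of F. Members in full detail are those called in a comparison or, where fewer than 3 passed, the 3 of lowest p; Isg15, Cmpk2, Zbp1, Ifi27l2a and the class I members were added after their values were seen. The members and all lists were chosen with earlier results of these data known. Positions are from GENCODE M21 and promoter sequences from RefSeq, both on GRCm38. Fits were tested on simulated data. Alternatives were RLE size factors, DESeq2 1.42.0, no filter, a mean above 1 CPM, limma 3.58.1 on log2(TPM + 1) and log2(TPM + 0.1), no sex term, the 8 libraries of undisputed genotype, library number or title genotype as a term, each library left out in turn and, after seeing the data, libraries 1 to 3 left out. Python 3.11.15 with numpy 2.4.6, pandas 2.3.3 and matplotlib 3.10.9 was used for joins and plots.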

Additional observations from a re-analysis of the deposited data

Results flagged for a closer look

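In each group of 6 libraries the extreme library's gap to its neighbour was set against the group's range, over the 33 members under both genotype labels. Of 132 groups 7 stood out, in 4 members and 5 pairs of member and library, and chance flags about 1 in 20 groups. Zbp1 had 0.813 CPM in library 1, against 0.208 to 0.435 CPM in the other C201R libraries by library name and 0.227 to 0.435 CPM by title. Ifi27l2a had 6.96 CPM in library 3, against 0.651 to 2.13 CPM in the other C201R libraries by library name and 0.797 to 1.80 CPM by title. Psmb9 had 2.33 CPM in library 2, against 1.20 to 1.54 CPM in the other C201R libraries by library name. Library 4, titled WT and named C201R, stood above the other libraries titled WT in 2 members, with 5.49 CPM of Rsad2 against 3.04 to 3.88 CPM and 2.13 CPM of Ifi27l2a against 0.651 to 0.986 CPM.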

How the results depend on the processing

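No paired analysis was possible because the libraries carry numbers 1 to 12, with none shared between groups. Tap1, H2-K1 and Psmb9 by library name, Ifit2, Lgals3bp and Gbp2 by title, and B2m, H2-K1, Gbp3 and Rsad2 along the number kept their direction under every setting run, while the members with positive differences went from 30 to 19 of 33 by library name and from 28 to 16 by title without libraries 1 to 3. By library name 127 genes were called. The count was 318 with DESeq2 (93 higher, 225 lower), 41 and 42 with limma on log2(TPM + 1) and log2(TPM + 0.1) (16 and 17 higher), 29 in the 8 libraries of undisputed genotype, 235 with the library number as a term (56 higher) and 25 without libraries 1 to 3. It was 52 to 209 with 1 library left out. The 1 member called became 2 with DESeq2 and 0 with either limma fit, with no sex term, in the 8 undisputed libraries, with the number as a term and without libraries 1 to 3, and 0 to 2 with 1 library left out. By title the 0 genes called became 18 with DESeq2, 29 in the 8 undisputed libraries and 8 with the number as a term, with 0 members throughout, and stayed at 0 with any 1 library left out. Along the number 299 genes were called (167 higher, 132 lower). The count was 1111 with DESeq2 (669 higher, 442 lower), 180 with no filter (113 higher), 87 and 86 with limma (79 and 78 higher), 561 with title genotype as a term and 0 without libraries 1 to 3, and 2 to 382 with 1 library left out, the lowest of these without library 1. The 4 members became 0 with either limma fit and without libraries 1 to 3, and 0 to 4 with 1 library left out. Beside the library-name genotype 1134 genes were called (428 higher, 706 lower). The count was 2304 and 2297 with limma (2115 and 2105 higher), 68 with no sex term and 0 without libraries 1 to 3, and 60 to 1684 with 1 library left out. The 3 members became 0 with no sex term and without libraries 1 to 3, and 0 to 3 with 1 library left out. The cause was not tested. Depth limits Zbp1 and Ifi44 most, with 7 to 26 and 15 to 44 expected counts per library, and Ifi27l2a, Usp18 and Psmb9 had as few as 18, 24 and 24.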
